A study of Mus musculus with 25 samples.

Results

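The core circadian clock genes were examined in white fat of mice as a set of 10 members, namely *Arntl*, *Clock*, *Npas2*, *Nr1d1*, *Nr1d2*, *Per1*, *Per2*, *Per3*, *Cry1* and *Dbp*, taken by symbol from the 54752 genes of the count tables. The study fed male C57BL/6N mice a normal chow diet (ND) or a high-fat diet (HFD), with 60% of calories from fat, from 5 weeks of age. HFD was also given to mice lacking *Acod1*, the gene of the enzyme that makes itaconate, in the whole body (*Acod1*-/-, a germline deletion, littermates from heterozygous breeding). Transcripts of epididymal (eWAT) and inguinal (iWAT) white fat were counted in 25 libraries. In eWAT there were 4 wild type ND, 5 wild type HFD and 5 *Acod1*-/- HFD libraries, and in iWAT 3, 5 and 3. No *Acod1*-/- ND library was analysed here, so all *Acod1*-/- libraries carry both the deletion and the diet. The labels give 16 weeks of treatment, except for iWAT *Acod1*-/- HFD libraries 2 and 3, given as 17 and 18 weeks. The hour at which the tissues were taken is given neither in the labels nor in the study's methods. The study's legends count as many mice as there are libraries in each group, all from a single experiment. Whether the same number in both depots marks the same mouse is not stated.

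The clock of mammalian cells is a loop of transcription in which ARNTL (BMAL1) pairs with CLOCK, or with its relative NPAS2, binds E-box sequences and switches on the *Per*, *Cry*, *Nr1d1*, *Nr1d2* and *Dbp* genes. PER and CRY proteins then block the activators, while the nuclear receptors REV-ERB alpha and REV-ERB beta, made from *Nr1d1* and *Nr1d2*, repress *Arntl*, *Npas2*, *Clock* and *Cry1* through elements that they share with the activating ROR receptors. DBP carries the rhythm to further genes through D-box elements. Over a day *Arntl* and *Npas2* are high when *Dbp* and the *Per* genes are low, and the other way round. In fat the loop is known to time lipid handling and adipokine release, and feeding on HFD is known to dampen it in mice.

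Promoter windows, running from 250 bases before to 50 bases after a start site, were found in RefSeq (GRCm38.p6) for 9 of the 10 genes, in 13 windows. *Per2* had none. Each window was searched on both strands for the letters by which the loop is read, and 5 stretches are shown because they hold such letters, which stand in capitals. The D-box (TTATGTAA or TTACGTAA) was found in 1.06% of all 32851 windows, and among the clock genes only in that of *Per3*, which held TTATGTAA at -205 and again at -158 from the start, inside an intron of the neighbouring gene *Camta1*. The E-box CACGTG stood in 7.15% of all windows and the related CACGTT, whose reverse strand reads AACGTG, in 4.68%. *Cry1* held one of each, *Per1* an E-box within an intron by the GENCODE annotation, and *Nr1d1* one AACGTG just before its start. The core of the REV-ERB and ROR element (TAGGTCA or TGGGTCA) was found in 6.45% of windows and, among the clock genes, in an *Arntl* window, in an exon of that gene. A cAMP response element (TGACGTCA), present in 1.79% of all windows, was in none of the 13. The stretches read 5′ to 3′ on the strand of their gene.
Per3, chr4:151044786-151044885, minus strand: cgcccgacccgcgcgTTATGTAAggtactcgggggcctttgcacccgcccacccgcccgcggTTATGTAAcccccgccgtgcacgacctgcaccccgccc
Cry1, chr10:85185095-85185154, minus strand: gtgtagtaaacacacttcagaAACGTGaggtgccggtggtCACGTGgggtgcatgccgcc
Per1, chr11:69098759-69098818, plus strand: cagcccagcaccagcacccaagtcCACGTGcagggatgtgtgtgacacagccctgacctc
Nr1d1, chr11:98775378-98775437, minus strand: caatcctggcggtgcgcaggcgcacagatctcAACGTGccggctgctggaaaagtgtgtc
Arntl, chr7:113207529-113207558, plus strand: gaaggcagaaagTAGGTCAgggacggaggt

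The libraries held 31405063 to 52335623 reads counted in genes, and every clock gene other than *Npas2* had at least 37 reads in each of them. *Acod1*, with 0 to 9 reads in wild type and 0 to 2 in *Acod1*-/- libraries, was too low to check the genotype labels. Column headers begin with 1 of 2 numbers, which split the libraries into 2 series, of 14 and 11 libraries. What these numbers stand for is not given in the sources used here. All ND libraries were in the second series, together with 1 wild type and 1 *Acod1*-/- HFD library of each depot. Diet and series thus overlap largely. Mesothelial markers summed to 20.1 CPM or more in every eWAT and to at most 6.63 CPM in any iWAT library, the difference known between these depots. Epididymis markers reached 7634 CPM in 1 eWAT ND library, and muscle markers 5382 CPM in 1 iWAT ND library, while lymphocyte markers were high in all 3 of the latter group. These are bulk tissues, in which fewer cells of a type and less RNA per cell cannot be told apart.

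Library 4 of the wild type HFD group stood apart from its group in both depots, and in the same way. In eWAT and again in iWAT, 3 members (*Arntl*, *Clock* and *Npas2*) were above and 5 (*Nr1d2*, *Per1*, *Per2*, *Per3* and *Dbp*) below all 4 other libraries of the group, whereas *Nr1d1* and *Cry1* were within their range. On the log2 CPM scale it exceeded the mean of the others by 2.36 in eWAT and 2.70 in iWAT for *Arntl*, and fell below it by values of -2.02 and -2.01 for *Dbp* and of -2.30 and -1.92 for *Per3*. The share of all genes for which library 4 lay outside its group was not counted. Over genes averaging 1 CPM or more, its deviations in eWAT and iWAT correlated with r = 0.49. This was the highest of the 11 pairs with the same number across depots. Libraries of different mice reached 0.52, namely eWAT ND library 2 and eWAT wild type HFD library 5. Counts of calls are given with and without library 4. Because it was set apart by its clock gene values, tests without it depend on the values they test, and their p-values for these genes are a description only. ND libraries also differed among themselves, libraries 1 and 2 of each depot having more *Arntl* and less *Dbp* than the others. The plot of every member by library displays both.

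**Figure D1:**
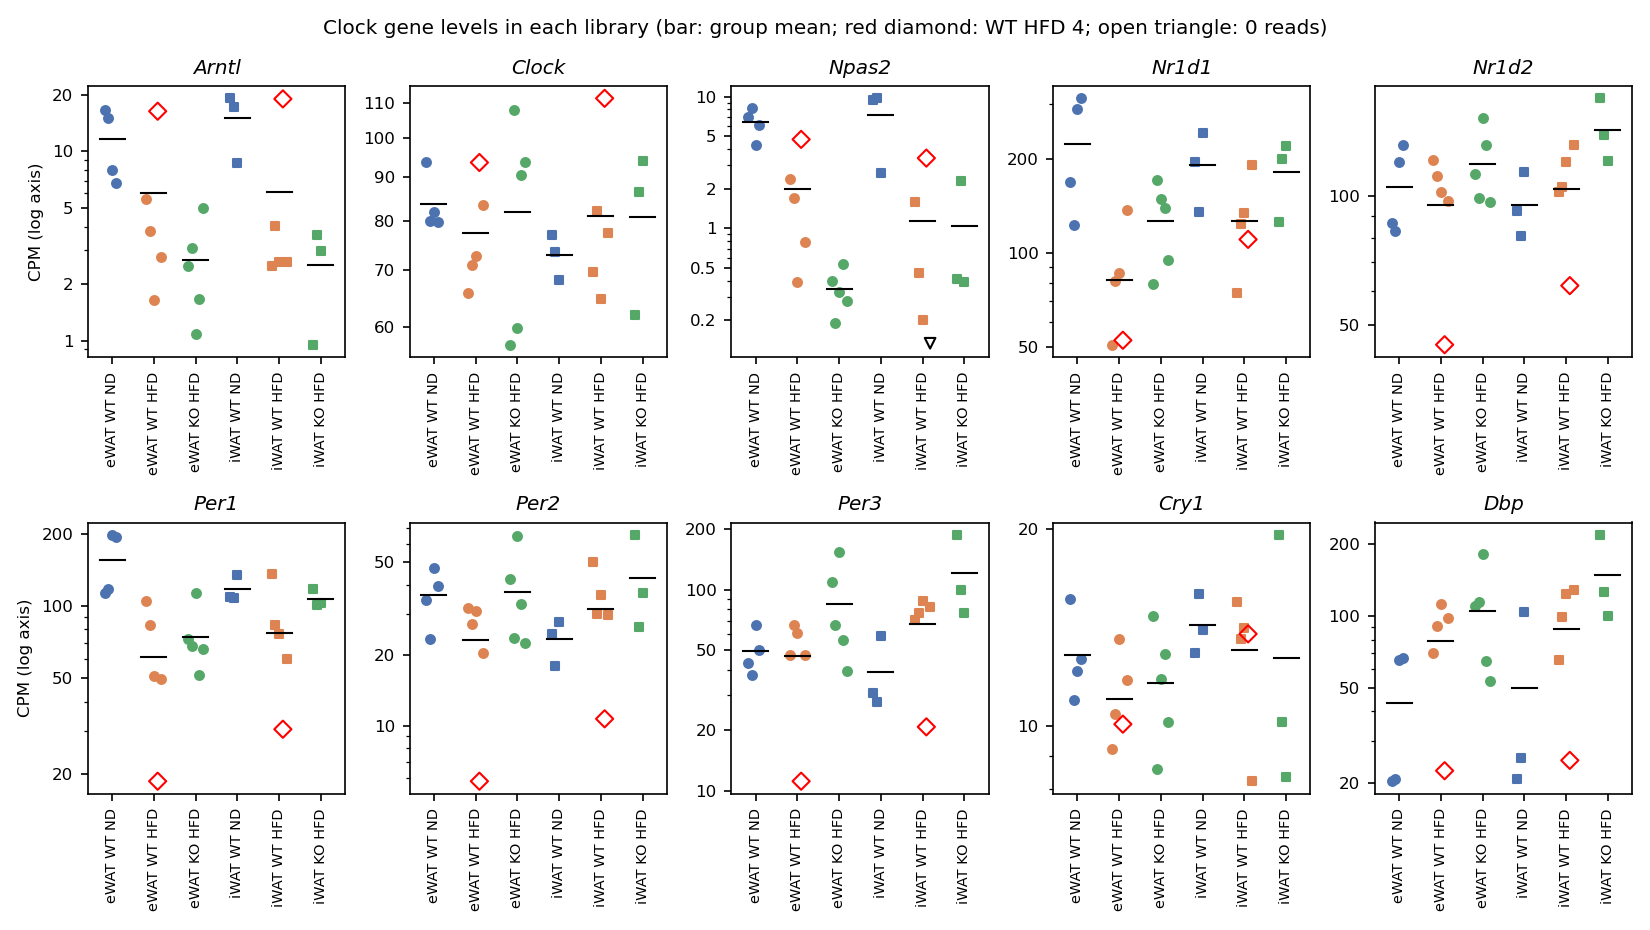
Level of each clock gene in CPM (counts scaled to the size of the library, log axis) in every library, by depot (circles eWAT, squares iWAT) and group, with the group mean as a bar, wild type HFD library 4 as a red diamond and 1 library without *Npas2* reads as an open triangle at the lower edge. KO is *Acod1*-/-. The red diamond lies at 16.3 and 18.96 CPM for *Arntl* where the other wild type HFD libraries reach at most 5.62 and 4.05 CPM.

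Levels are given as CPM on 1 scale for all libraries, and per kilobase of exon where genes are compared with each other. In eWAT ND the most abundant member per length was *Nr1d1*, with 72.5 ± 29.8 CPM per kb (SD, n = 4), followed by *Per1* (27.7 ± 8.29) and *Nr1d2* (19.5 ± 4.48). *Arntl* (1.55 ± 0.658) and *Npas2* (1.34 ± 0.344) were the lowest. When the 6 groups were ordered by their mean for each gene, none of the 50 pairs of neighbouring groups was without overlap between its libraries, so the order of the means is a description only.

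*Arntl* (ENSMUSG00000055116, chr7:113207465-113314126, plus strand, GRCm38 as are all gene positions below) encodes BMAL1, the activator without which the loop stops. In eWAT it was measured at 16.7, 15.1, 8.01 and 6.83 CPM in ND libraries 1 to 4, at 5.62, 3.79, 1.64, 16.3 and 2.78 CPM in wild type HFD libraries 1 to 5 and at 2.49, 3.10, 1.09, 1.65 and 5.00 CPM in *Acod1*-/- HFD libraries 1 to 5. In iWAT the corresponding values were 19.1, 17.1 and 8.65 CPM on ND, 2.48, 4.05, 2.60, 18.96 and 2.60 CPM in wild type HFD and 0.952, 3.60 and 2.99 CPM in *Acod1*-/- HFD. With the exception of library 4, every HFD library of either genotype was below every ND library of its depot. Group means ran from 14.95 ± 5.55 CPM (SD, n = 3) in iWAT ND over 11.6 ± 4.95 (n = 4) in eWAT ND to 2.51 ± 1.39 (n = 3) in iWAT *Acod1*-/- HFD. The wild type HFD means of 6.03 ± 5.94 (n = 5) in eWAT and 6.14 ± 7.20 (n = 5) in iWAT became 3.46 ± 1.69 and 2.93 ± 0.749 (n = 4 each) without library 4.

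*Npas2* (ENSMUSG00000026077, chr1:39193731-39363236, plus strand), the relative that can replace CLOCK, was the member with the widest range. It was at 7.03, 8.21, 4.31 and 6.05 CPM in eWAT ND, at 2.36, 1.69, 0.388, 4.73 and 0.785 CPM in wild type HFD and at 0.398, 0.192, 0.327, 0.533 and 0.283 CPM in *Acod1*-/- HFD. The last 5 values rest on 5 to 20 reads per library, against 17 to 183 in wild type HFD and 171 to 453 on ND. In iWAT it was at 9.43, 9.72 and 2.63 CPM on ND, at 1.58, 0.459, 0.202, 3.41 and 0 CPM in wild type HFD and at 0.412, 2.30 and 0.388 CPM in *Acod1*-/- HFD. Library 4 was again the highest of the wild type HFD libraries and exceeded 1 ND library in each depot, whereas every other wild type HFD library was below all ND libraries. *Clock* (ENSMUSG00000029238, chr5:76209868-76304792, minus strand), the partner of BMAL1, which is known to cycle little, stayed between 57.2 and 111 CPM across the 25 libraries and its group means between 72.8 ± 4.52 (n = 3) in iWAT ND and 83.8 ± 6.67 (n = 4) in eWAT ND.

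*Nr1d1* (ENSMUSG00000020889, chr11:98767932-98775333, minus strand), encoding REV-ERB alpha, was measured at 169, 123, 288 and 313 CPM in eWAT ND, at 50.8, 81.5, 86.4, 52.5 and 138 CPM in wild type HFD and at 79.2, 171, 148, 139.8 and 95.1 CPM in *Acod1*-/- HFD. In iWAT it was at 195, 135 and 242 CPM on ND, at 74.5, 123, 134, 110.5 and 191.1 CPM in wild type HFD and at 126, 201 and 219.8 CPM in *Acod1*-/- HFD. Only 1 wild type HFD library of eWAT, the fifth, exceeded the lowest ND library, while in iWAT the ranges overlapped. *Nr1d1* shares 263 exon bases, 8.55% of its own, with *Thra*, the thyroid hormone receptor alpha gene on the opposite strand. Whether counting used the strand is not given in the sources used here, and *Thra* itself fell on HFD in eWAT (log2 fold change = -1.14, SE = 0.16, adjusted p = 0.000334, edgeR quasi-likelihood test as below) and in iWAT (-0.32, SE = 0.11, adjusted p = 0.045). *Nr1d2* (ENSMUSG00000021775, chr14:18204054-18239127, minus strand), encoding REV-ERB beta, was at 45.01 and 61.8 CPM in library 4 of eWAT and iWAT and between 80.5 and 169 CPM in every other library.

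The *Per* genes encode the repressors that accumulate late in the cycle. *Per1* (ENSMUSG00000020893, chr11:69095217-69109960, plus strand), which glucocorticoids and cAMP are also known to induce, was at 114, 118, 198 and 195 CPM in eWAT ND, at 105, 83.4, 51.1, 18.6 and 49.7 CPM in wild type HFD and at 73.2, 67.9, 114, 51.6 and 66.3 CPM in *Acod1*-/- HFD. In iWAT it was at 109, 108 and 135 CPM on ND, at 136, 83.7, 76.6, 30.6 and 60.2 CPM in wild type HFD and at 118, 101 and 104 CPM in *Acod1*-/- HFD. All wild type HFD libraries of eWAT were below all of its ND libraries, whereas in iWAT library 1 exceeded each ND library.

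*Per3* (ENSMUSG00000028957, chr4:151003652-151044665, minus strand), whose window held the D-boxes printed above, was at 43.3, 37.6, 66.5 and 50.4 CPM in eWAT ND, at 47.6, 66.96, 61.1, 11.2 and 47.6 CPM in wild type HFD and at 109, 66.5, 153, 56.1 and 39.4 CPM in *Acod1*-/- HFD. In iWAT it was at 30.7, 27.7 and 58.9 CPM on ND, at 70.5, 76.6, 87.9, 20.9 and 82.2 CPM in wild type HFD and at 187.3, 99.3 and 76.7 CPM in *Acod1*-/- HFD. Library 4 had the lowest value of all libraries in each depot, and without it the iWAT wild type HFD libraries were all above the ND libraries. *Per2* (ENSMUSG00000055866, chr1:91415982-91459324, minus strand) ranged from 5.79 CPM in library 4 of eWAT to 65.5 CPM in iWAT *Acod1*-/- HFD library 1, and its group means from 23.2 ± 10.7 CPM (n = 5) in eWAT wild type HFD to 43.01 ± 20.2 CPM (n = 3) in iWAT *Acod1*-/- HFD. *Cry1* (ENSMUSG00000020038, chr10:85131700-85185064, minus strand), the partner of the PER proteins, stayed between 8.23 and 19.6 CPM, with all group means between 11.005 ± 1.71 (n = 5) and 14.3 ± 1.498 CPM (n = 3).

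*Dbp* (ENSMUSG00000059824, chr7:45705088-45710203, plus strand), the D-box factor at the output of the loop, was at 20.4, 20.8, 65.4 and 66.9 CPM in eWAT ND, at 70.1, 91.5, 113, 22.6 and 98.5 CPM in wild type HFD and at 110.3, 115, 183, 64.9 and 53.8 CPM in *Acod1*-/- HFD. In iWAT it was at 20.97, 25.6 and 105 CPM on ND, at 66.0, 99.2, 124, 24.98 and 128 CPM in wild type HFD and at 219, 127 and 100.5 CPM in *Acod1*-/- HFD. Without library 4 all wild type HFD libraries of eWAT were above all ND libraries, and in iWAT ND library 3 lay within the wild type HFD range. *Dbp* shares 539 exon bases, 18.0% of its own, with *Sphk2* on the opposite strand, chosen for mention after the overlap was seen. *Sphk2* passed no test by diet (adjusted p = 0.102 in eWAT and 0.501 in iWAT, edgeR) and was lower in *Acod1*-/- mice in eWAT (log2 fold change = -0.40, adjusted p = 0.052).

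*Dbp* and *Arntl* are known to peak at opposite times of the day. A shift in time and a change in the level of either gene would both move their ratio, and with no hour of collection given these cannot be told apart. The log2 ratio of *Dbp* to *Arntl*, per kilobase, was 1.62, 1.79, 4.35 and 4.61 in eWAT ND libraries 1 to 4, and 1.46, 1.91 and 4.92 in iWAT ND libraries 1 to 3. It was 4.96, 5.91, 7.39, 1.80 and 6.46 in wild type HFD libraries of eWAT and 6.04, 5.93, 6.88, 1.73 and 6.93 in those of iWAT. *Acod1*-/- HFD libraries reached 6.77, 6.52, 8.66, 6.59 and 4.75 in eWAT and 9.11, 6.45 and 6.38 in iWAT. Libraries 1 and 2 on ND and library 4 on HFD thus had nearly the same ratio, between 1.46 and 1.91, in both depots, and every other HFD library had a higher ratio than all ND libraries of its depot. The group means were 3.10 ± 1.61 (SD, n = 4), 5.30 ± 2.15 (n = 5) and 6.66 ± 1.39 (n = 5) in eWAT ND, wild type HFD and *Acod1*-/- HFD, and 6.18 ± 1.02 (n = 4) in wild type HFD without library 4. In iWAT they were 2.76 ± 1.88 (n = 3), 5.50 ± 2.16 (n = 5) and 7.31 ± 1.56 (n = 3), and 6.44 ± 0.53 (n = 4) without library 4. With all libraries the wild type ND and HFD ranges overlapped in both depots.

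**Figure D2:**
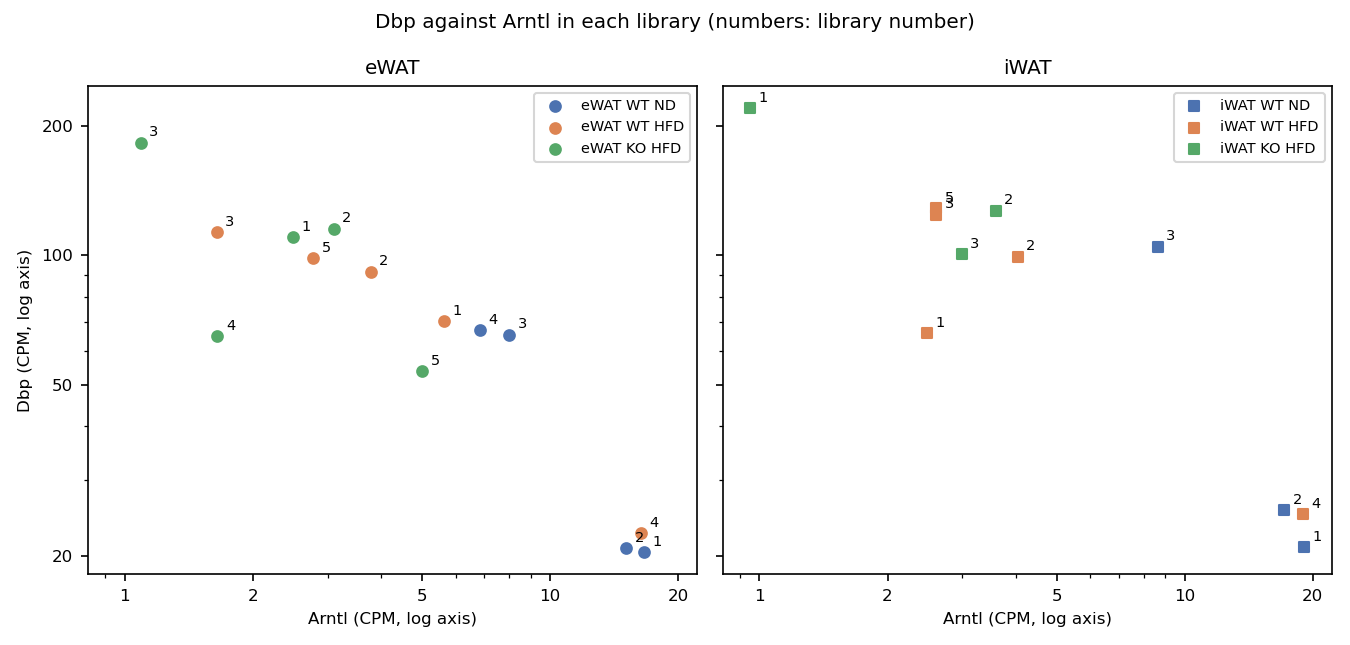
*Dbp* against *Arntl* in each library of eWAT (left) and iWAT (right), both in CPM on log axes, coloured by group (KO is *Acod1*-/-) and marked with the library number. ND libraries 1 and 2 and wild type HFD library 4 lie together at the lower right of each panel, at 15.1 to 19.1 CPM of *Arntl* and 20.4 to 25.6 CPM of *Dbp*.

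Library 4 lay below the rest of its group in the ratios of *Nr1d1* and *Cry1* to *Arntl*. Both ratios hold *Arntl*, one of the genes by which the library was set apart. Its *Nr1d1* and *Cry1* levels were within the range of the group. The log2 ratio of *Nr1d1* to *Arntl* was 2.97 in library 4 of eWAT and 3.83 in that of iWAT, against 4.46 to 6.96 and 6.17 to 7.46 in the other wild type HFD libraries, and the ratio of *Cry1* to *Arntl* was 0.48 and 0.72 against 1.88 to 4.18 and 2.81 to 3.79. *Per2* relative to *Nr1d1*, both repressors of the loop, was -3.49 ± 0.30 (n = 4) on ND and -2.86 ± 1.01 (n = 5) in wild type HFD of eWAT, and -3.93 ± 0.11 (n = 3) and -3.03 ± 1.04 (n = 5) in iWAT. Library 4 had the lowest value of its group, at -4.10 in eWAT and -4.29 in iWAT, and without it the means were -2.55 ± 0.85 and -2.72 ± 0.89 (n = 4 each). The 4 other wild type HFD libraries ran from -3.67 to -1.60 in eWAT and from -3.62 to -1.498 in iWAT, a wider range than on ND. *Npas2* relative to *Arntl* had means of -0.14 ± 0.45 (n = 4), -0.92 ± 0.36 (n = 5) and -2.01 ± 1.13 (n = 5) in ND, wild type HFD and *Acod1*-/- HFD of eWAT, and of -0.52 ± 0.46 (n = 3), -2.42 ± 1.87 (n = 5) and -0.87 ± 1.14 (n = 3) in iWAT. Without library 4 the wild type HFD means were -0.87 ± 0.40 and -2.57 ± 2.12 (n = 4 each). The order of the 2 HFD groups thus differed between depots. These ratios were not tested.

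**Figure D3:**
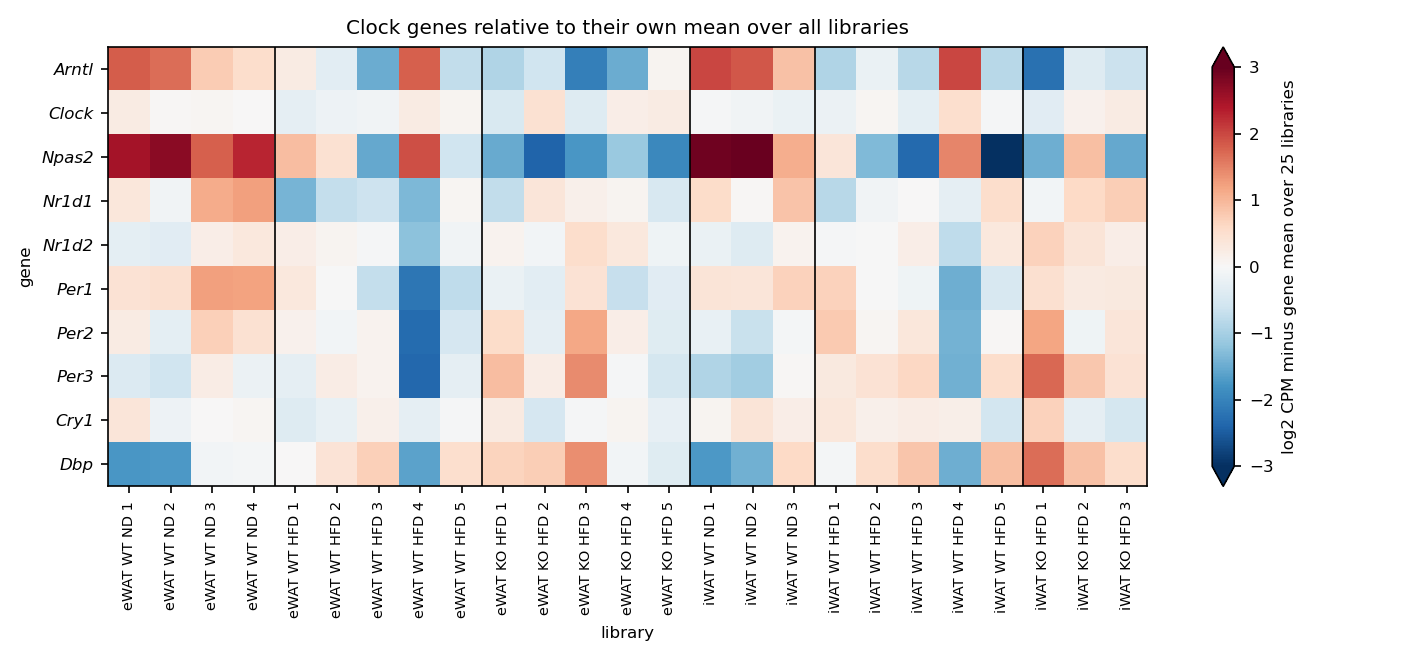
The 10 clock genes (rows) in the 25 libraries (columns, grouped by depot and group, KO being *Acod1*-/-), as log2 CPM minus the mean of the gene over all libraries. *Arntl* and *Npas2* are high (red) and *Dbp* is low (blue) in ND libraries 1 and 2 and in wild type HFD library 4 of both depots.

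Most members deviated from their group means in the direction opposite to *Arntl* across the libraries of a depot, some only weakly. Pearson's r with *Arntl* was -0.85 for *Dbp*, -0.82 for *Nr1d2*, -0.82 for *Per3* and -0.81 for *Per2* over 14 eWAT libraries, and -0.84, -0.91, -0.95 and -0.93 over 11 iWAT libraries. Spearman's rho for *Dbp* was -0.87 and -0.67. Without library 4 the r of *Dbp* was -0.74 in eWAT and -0.70 in iWAT, that of *Per3* -0.65 and -0.86, that of *Nr1d2* -0.64 and -0.73, and that of *Per2* -0.63 and -0.81. The r of *Per1* was -0.56 in eWAT and -0.78 in iWAT, but -0.12 and -0.33 without library 4. For *Cry1* it was -0.43 and -0.24, and -0.44 and -0.56 without library 4. *Npas2* was on the side of *Arntl*, with 0.67 and 0.66, or 0.42 and 0.41 without library 4, and so was *Clock*, with 0.47 and 0.94, or 0.34 and 0.87. The r of *Nr1d1* was -0.65 in eWAT and 0.04 in iWAT, and -0.61 and 0.23 without library 4. The libraries share depth scaling, series and tissue make-up, and these values are given as a description.

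Among 11312 genes of eWAT with at least 5 CPM on average, those outside the set whose deviations were most like those of *Arntl* were *Fbn1* (r = 0.93), *Maged2* (0.91), *Galnt4* (0.88), *Pld4* (0.87) and *Mff* (0.86). Those most opposed were *Whamm* (-0.94), *AC132460.3* (-0.90), *Srpk2* (-0.89), *Fam160a2* (-0.88) and *Crtc2* (-0.87), over 14 libraries. In iWAT, among 11398 genes and over 11 libraries, the most alike were *Dtx4* (0.94), *Gypc* (0.92), *Klhl25* (0.91) and *Fam241a* (0.91) together with *Ckap4* (0.91). The most opposed were *Gm2415* (-0.95), *BC051226* (-0.95), *Calcoco1* (-0.94), *Gm47283* (-0.93) and *Rere* (-0.91). No name was shared between the depots, and without library 4 other genes stood at both ends in each depot.

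The effect of HFD in wild type mice was tested first, with edgeR's quasi-likelihood test on all genes of a depot and Benjamini-Hochberg adjustment, a call being an adjusted p under 0.1. In eWAT HFD lowered 3 of the 10 members and raised none, where 24.8% of the 14936 genes tested were called higher and 26.9% lower. *Nr1d1* fell by a log2 fold change of -1.45 (SE = 0.34, adjusted p = 0.0048), *Per1* by -1.34 (SE = 0.38, adjusted p = 0.013) and *Npas2* by -1.69 (SE = 0.55, adjusted p = 0.025). *Arntl* (-0.95, SE = 0.59, adjusted p = 0.207) and *Dbp* (0.87, SE = 0.50, adjusted p = 0.172) did not pass. The median over the members was -0.43, against -0.04 over all genes. *Per1* was the only member whose groups did not overlap, lower on HFD, as for 17.9% of all genes.

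Without library 4 the eWAT diet comparison called 4 members lower and 1 higher, where 23.1% and 21.8% of 14960 genes were called. Library 4 had been set apart by its values of *Arntl*, *Npas2*, *Per1* and *Dbp* among others, so these calls are conditioned on what they test. *Arntl* was now lower by a log2 fold change of -1.75 (SE = 0.50, adjusted p = 0.018) and *Dbp* higher by 1.11 (SE = 0.44, adjusted p = 0.069), and the groups of both did not overlap, nor did those of *Npas2* and *Per1*, so that 3 members were apart below and 1 above, where 18.7% and 17.8% of all genes were. *Npas2* was at -2.29 (SE = 0.50, adjusted p = 0.0056), and *Nr1d1* and *Per1* kept their calls at -1.32 (SE = 0.35) and -1.11 (SE = 0.30). With the series as a term, *Npas2* (adjusted p = 0.049), *Nr1d1* (0.083) and *Per1* (0.061) stayed called, on 1 wild type and 1 *Acod1*-/- HFD library of the series that holds all ND libraries.

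In iWAT HFD lowered 1 of the 10 members, *Npas2* (log2 fold change = -2.65, SE = 1.12, adjusted p = 0.079), where 24.2% of 14801 genes were called lower and 25.9% higher. Leaving out 1 library lost this call in 5 cases. The adjusted p was then 0.160 for ND library 1 and 0.187 for ND library 2. It was 0.106, 0.147 and 0.135 for HFD libraries 1, 2 and 3 of the wild type. *Arntl* (-1.25, SE = 0.70), *Nr1d1* (-0.56, SE = 0.29), *Per1* (-0.58, SE = 0.34), *Per3* (0.81, SE = 0.45) and *Dbp* (0.83, SE = 0.61) did not pass. The median of the members was 0.02 and that of all genes 0.00, and no member had groups without overlap, against 24% of all genes lower and 23.1% higher. With the series as a term *Npas2* was at -5.75 (SE = 1.84, adjusted p = 0.041), *Cry1* was called lower (-0.75, SE = 0.27, adjusted p = 0.062) and *Nr1d1* was at -0.06 (SE = 0.33).

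Without library 4 the iWAT comparison called *Arntl* (log2 fold change = -2.34, SE = 0.44, adjusted p = 0.0033) and *Npas2* (-3.70, SE = 1.17, adjusted p = 0.032) lower and *Per3* (1.03, SE = 0.33, adjusted p = 0.033) higher, where 22.6% of 14825 genes were called lower and 22.8% higher. These calls too are conditioned on the values by which the library was set apart. The groups of these 3 genes did not overlap, nor did those of *Per2* (0.65, SE = 0.30, adjusted p = 0.118), which is 2 members below and 2 above where 25.6% and 24.6% of all genes were apart. Other single libraries also decided calls in iWAT. *Dbp* was called higher without ND library 3 (1.93, adjusted p = 0.027), as was *Per3* (1.21, adjusted p = 0.090). *Per1* was lower once HFD library 1 was left out (-0.87, adjusted p = 0.030). *Nr1d1* was lower once HFD library 5 (-0.77, adjusted p = 0.047) or ND library 2 (-0.77, adjusted p = 0.096) was left out.

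**Figure D4:**
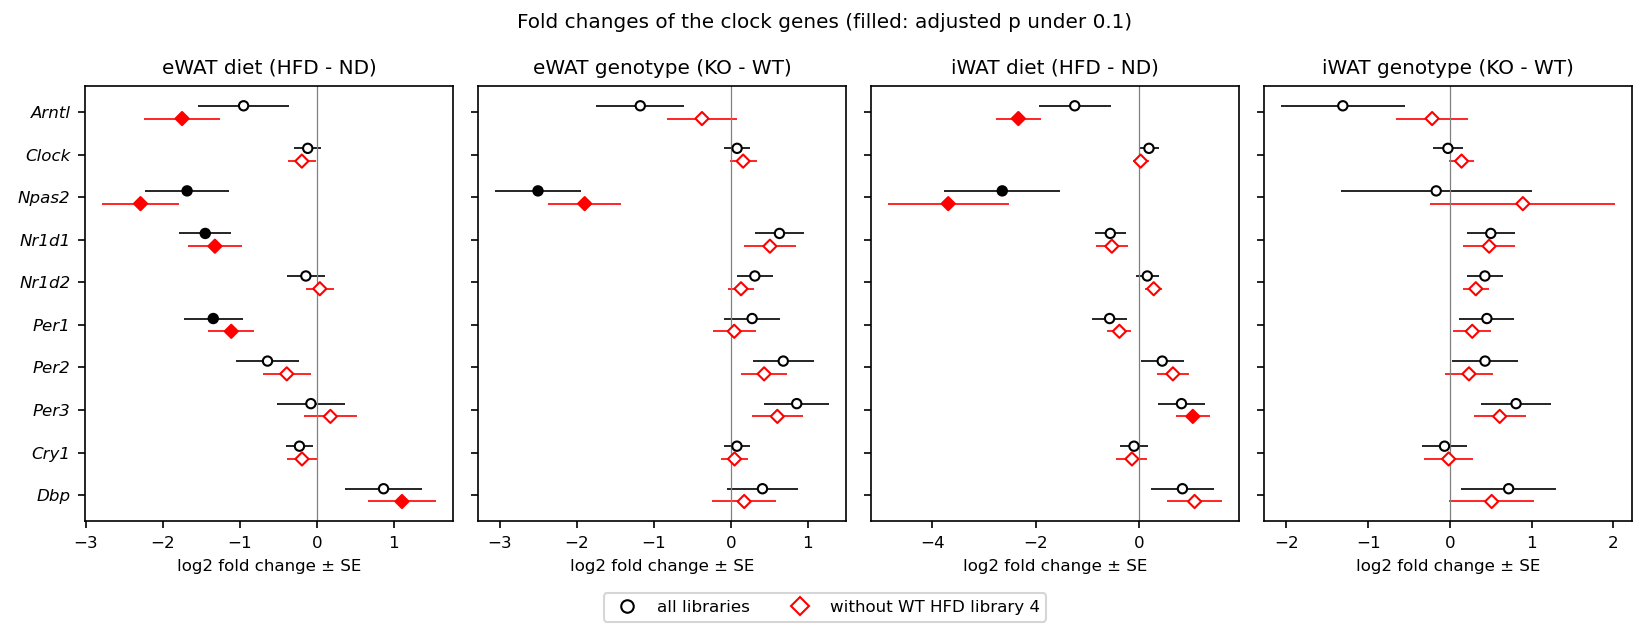
Log2 fold change of each clock gene with its standard error for the diet comparison (wild type HFD over ND) and the genotype comparison (KO, that is *Acod1*-/-, over wild type on HFD) in each depot, with all libraries (black circles) and without wild type HFD library 4 (red diamonds), filled where the adjusted p was under 0.1. Leaving out the library moves *Arntl* from -0.95 to -1.75 in the eWAT diet comparison and from -1.25 to -2.34 in that of iWAT.

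Whether *Acod1* loss changed the clock genes on HFD was tested next. In eWAT *Npas2* was the only member called, lower in *Acod1*-/- mice (log2 fold change = -2.50, SE = 0.56, adjusted p = 0.016), where 10.8% of 14936 genes were called lower and 9.13% higher. Without library 4 it was at -1.90 (SE = 0.48, adjusted p = 0.040), where 7.55% of 14960 genes were called lower and 4.81% higher. Within the first series alone it was at -2.65 (adjusted p = 0.031). The groups overlapped, since wild type HFD library 3 (0.388 CPM) was below 2 of the *Acod1*-/- libraries, as did those of all other members, where 2.79% of all genes were apart above and 4.37% below. *Arntl* (-1.18, SE = 0.57, adjusted p = 0.191), *Per3* (0.86, SE = 0.42, adjusted p = 0.196), *Nr1d1* (0.63, SE = 0.32, adjusted p = 0.210) and *Per2* (0.68, SE = 0.39, adjusted p = 0.271) did not pass, and *Arntl* was at -0.37 (SE = 0.46) without library 4. Leaving out *Acod1*-/- library 5 brought *Arntl* (-1.54, adjusted p = 0.089) and *Per3* (1.03, adjusted p = 0.096) past the threshold, and leaving out wild type HFD library 5 brought *Nr1d1* past it (0.90, adjusted p = 0.069). Within the first series *Arntl* was at -1.74 (adjusted p = 0.092) and *Nr1d1* at 0.97 (adjusted p = 0.030).

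In iWAT no member was called by genotype, and none of the 14801 genes was (0%), while unadjusted p-values under 0.05 were found for 1062 genes with a higher and 1406 with a lower level, and DESeq2 called 440 higher and 632 lower, none of them 1 of the 10 members. The lowest adjusted p-values were those of *Nr1d2* (log2 fold change = 0.43, SE = 0.22, adjusted p = 0.353) and *Per3* (0.81, SE = 0.43, adjusted p = 0.370), the latter at 0.61 (SE = 0.32) without library 4. The wild type HFD and *Acod1*-/- libraries overlapped for all 10 members, where 3.66% of all genes were apart above and 4.6% below. The diet and genotype comparisons of a depot share the wild type HFD libraries, library 4 included, so that a library high in *Arntl* there moves both.

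Depots and their responses were compared in 1 fit over the 25 libraries. On ND no member passed the test between eWAT and iWAT, where 17.5% of 15034 genes were higher in eWAT and 14.2% lower, the values running from -0.36 (SE = 0.74) for *Arntl* to 0.62 (SE = 0.49) for *Per2*. Only the groups of *Clock* did not overlap, at 0.20 (SE = 0.20, adjusted p = 0.506), eWAT being higher, as in 19% of all genes. The interaction of diet with depot called no member, where 14% of genes were called higher and 15% lower in the interaction. The interaction values farthest from 0 were -1.05 (SE = 0.63, adjusted p = 0.249) for *Per2*, 0.997 (SE = 1.27, adjusted p = 0.621) for *Npas2*, -0.86 (SE = 0.67, adjusted p = 0.389) for *Per3* and -0.86 (SE = 0.48, adjusted p = 0.221) for *Nr1d1*, a negative value being a lower fold change in eWAT, and *Nr1d1* passed without eWAT wild type HFD library 5 (-1.11, adjusted p = 0.089). The interaction of genotype with depot called no member and 1 gene in all (0.00665%, lower; *Cxcl14*, a chemokine gene named after its value was seen), while 662 genes were positive and 862 negative with an unadjusted p under 0.05 and DESeq2 called 31 and 65. Without library 4 of both depots no member was called in any of these 3 contrasts, and the diet interactions of *Npas2* and *Per2* were 1.43 (adjusted p = 0.454) and -1.01 (adjusted p = 0.137).

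**Figure D5:**
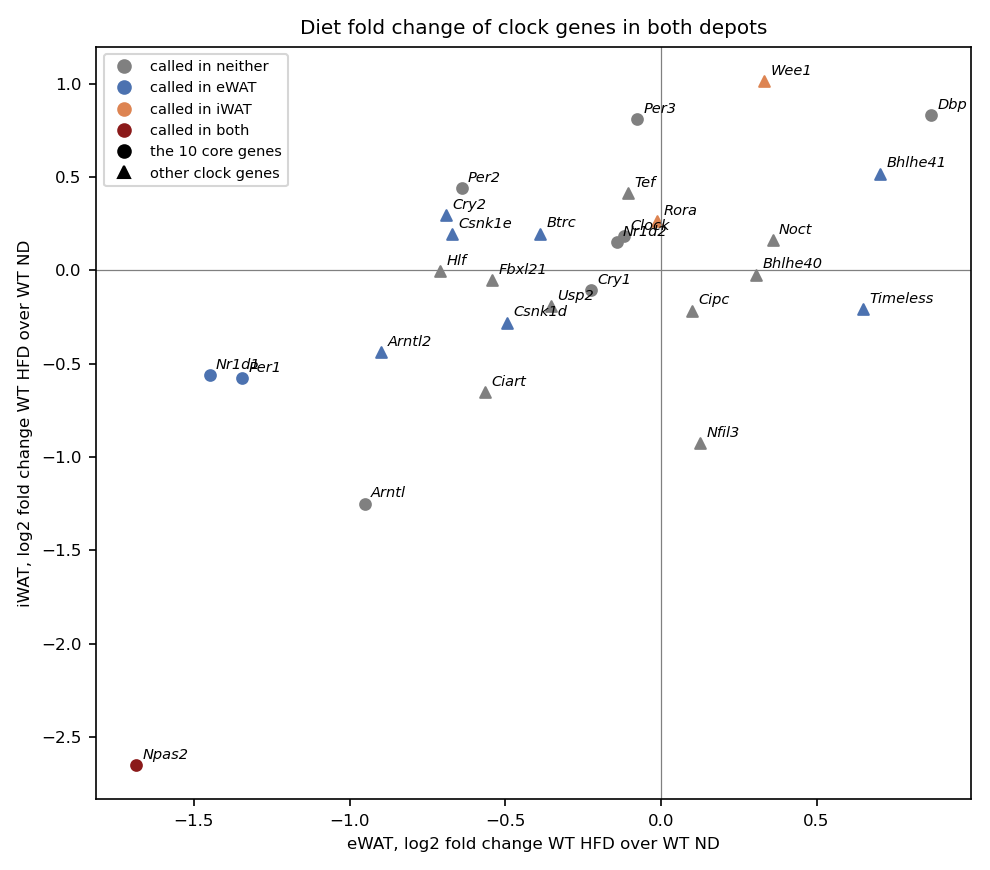
Log2 fold change of wild type HFD over ND in iWAT (vertical axis) against eWAT (horizontal axis) with all libraries, for the 10 core genes (circles) and 18 other clock genes (triangles), coloured by the depot in which the adjusted p was under 0.1. *Npas2*, at the lower left, was the plotted gene called lower in both depots.

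Of 18 further genes of the clock and its outputs, all tested, HFD lowered 5 and raised 2 in eWAT and raised 2 in iWAT, with medians of -0.23 and -0.01. Over all genes 26.9% were lower and 24.8% higher in eWAT and 24.2% and 25.9% in iWAT, so the share lowered in eWAT was near that of all genes and the other shares were smaller. Lower in eWAT were *Cry2*, the other cryptochrome (log2 fold change = -0.69, adjusted p = 0.0080), and the BMAL1 relative *Arntl2* (-0.90, adjusted p = 0.019). So were the casein kinases *Csnk1d* (-0.49) and *Csnk1e* (-0.67), which phosphorylate PER, and *Btrc* (-0.39), which marks PER for degradation. *Bhlhe41*, an E-box repressor (0.70, adjusted p = 0.070), and *Timeless* (0.65, adjusted p = 0.032) were higher. In iWAT *Wee1*, a cell cycle kinase driven by the clock (1.01, adjusted p = 0.033), and *Rora* (0.27, adjusted p = 0.067) rose. Without library 4, 2 were called higher and 1 lower in iWAT, where 22.8% and 22.6% of all genes were. *Rora* was then not called (0.23, adjusted p = 0.14), so the 2 included a gene not called with all libraries. The gene called lower was *Nfil3*, a repressor at D-boxes (-1.40, adjusted p = 0.088).

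By genotype the other clock genes held 3 higher and 1 lower in eWAT, where 9.13% of all genes were higher and 10.8% lower, with a median of 0.14 against 0.04 over all genes. *Usp2*, a deubiquitinase of clock proteins (0.85, adjusted p = 0.044), *Btrc* (0.50, adjusted p = 0.017) and *Arntl2* (0.70, adjusted p = 0.097) were higher and *Noct*, a rhythmic phosphatase (-0.57, adjusted p = 0.059), was lower in *Acod1*-/- mice. Without library 4, 2 were higher and none lower, where 4.81% and 7.55% of all genes were. None was called in iWAT. On ND *Csnk1e* was higher (0.59, adjusted p = 0.018) and *Timeless* (-0.73, adjusted p = 0.020) and *Bhlhe40* (-1.06, adjusted p = 0.061) lower in eWAT than in iWAT, where 17.5% of all genes were higher and 14.2% lower.

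Genes that glucocorticoids induce were measured beside *Per1*. In eWAT HFD lowered 4 of 5, against 26.9% of all genes, namely *Zbtb16* (log2 fold change = -3.12, adjusted p = 9.34e-05), *Fkbp5* (-1.72, adjusted p = 0.0038), *Sgk1* (-1.28, adjusted p = 0.0052) and *Klf9* (-0.69, adjusted p = 0.018), and their summed level ran from 840.2 to 1544 CPM on ND and from 339 to 891 CPM in wild type HFD. In iWAT only *Zbtb16* was lower (-1.89, adjusted p = 0.0028), against 24.2% of all genes, the sums being 732 to 982 and 362 to 979 CPM. Library 4 had the lowest sum of its group in each depot, and without it as many were called lower on HFD. *Zbtb16* was higher by genotype in eWAT (0.78, adjusted p = 0.069), but was not called without library 4 (0.60, adjusted p = 0.119). Of 9 immediate early genes, 5 were higher and 2 lower on HFD in eWAT and 4 higher and 1 lower in iWAT, led by *Fos* (2.43 and 2.77) and *Atf3* (3.93 and 2.56), where 24.8% to 25.9% of all genes were higher and 24.2% to 26.9% lower. Without library 4 these were 4 and 1 in eWAT, where *Ier2* and *Dusp1* were no longer called, and 3 and 1 in iWAT, where *Egr1* was not. By genotype in eWAT 4 were lower with library 4 and without it, where 10.8% and 7.55% of all genes were. The part of both lists in the clock gene values was not tested.

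The make-up of the tissue moved with the same groups. Over all genes 24.8% were called higher and 26.9% lower on HFD in eWAT, and 25.9% and 24.2% in iWAT. By genotype in eWAT these shares were 9.13% and 10.8%. Without library 4 they were 21.8% and 23.1%, 22.8% and 22.6%, and 4.81% and 7.55%, in the same order. All 6 macrophage markers rose on HFD in eWAT and all 6 were lower in *Acod1*-/- mice, also without library 4, with sums of 373 to 709 CPM on ND, 1034 to 3307 in wild type HFD (2799 in library 4) and 311 to 1117 in *Acod1*-/- HFD. In iWAT 5 of 6 rose on HFD, with sums of 396 to 490.0 and 376 to 1003 CPM, library 4 having the highest. Summed T cell markers were at 170.1 to 279 CPM and B cell markers at 412 to 637 CPM in iWAT ND, against at most 41.9 and 42.6 CPM in iWAT wild type HFD. In eWAT both sums stayed at or below 34.9 CPM in every library. Of 4 T cell markers 2 were higher on HFD there and 2 lower by genotype, or 1 and 0 without library 4. That library had the highest T cell sum of eWAT, 15.9 CPM. Of 4 B cell markers 1 was higher on HFD and 0 were called by genotype in eWAT, with library 4 and without it. Of 6 adipocyte markers 4 rose on HFD in iWAT, where their sums of 21819 to 26777 CPM on ND and 38302 to 48410 CPM in wild type HFD did not overlap. In eWAT 1 was higher and 2 were lower on HFD, with overlapping sums of 21292 to 32636 and 19076 to 40792 CPM, and 3 were higher by genotype, or 0 without library 4. Of 4 endothelial markers 3 were lower on HFD in eWAT, with sums of 506 to 799.6 and 247 to 454 CPM, and 4 were higher in iWAT, or 3 without library 4, with sums of 367 to 487 and 495.5 to 796 CPM. Of 4 fibroblast and progenitor markers 3 were higher on HFD in each depot, or 2 in iWAT without library 4. Their sums were 981 to 1238 and 1581 to 2692 CPM in eWAT and 424 to 704 and 987 to 1748 CPM in iWAT, and 3 were lower by genotype in eWAT. Brown adipocyte markers, 3 of 3, were lower on HFD in iWAT, with sums of 68.7 to 987 and 16.5 to 44.7 CPM. The part of all these markers in the diet and genotype values of the clock genes was not tested.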

How the data were processed

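RNA of epididymal and inguinal white fat pieces (TRIZOL, NEBNext Ultra II Directional libraries, Illumina NovaSeq) was sequenced by the authors. Per the labels and the study's methods, reads were trimmed with cutadapt, filtered for contaminants and aligned to GRCm38 with STAR. The authors deposited raw counts of reads per gene, which were used as given. The counting program, and whether it used the strand, are not given in the sources used here. Rows that name no gene held 6.413% to 11.88% (no feature) and 1.519% to 2.07% (ambiguous) of the reads and were left out.

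The deposited FPKM columns, which the authors computed per kilobase of cDNA and per number of mapped or counted reads, were not tested. From the counts, genes averaging 1 CPM or more in the libraries fitted were tested per depot (3 groups), or over the 25 libraries for contrasts between depots, with edgeR 4.0.16 (TMM, glmQLFit and glmQLFTest, R 4.3.3) and Benjamini-Hochberg adjustment over all genes tested. A call was an adjusted p under 0.1. SE is the log2 fold change divided by the square root of F. CPM came from 1 TMM scaling of all libraries. Log2 CPM used a prior count of 2, or 0.5 as an alternative. Other alternatives were no filter, 1 CPM in every library, DESeq2 1.42.0 (size factors or Wald test), an adjusted p under 0.05, the series as a term, a replicate block, only the compared groups and each library left out. The test was checked on simulated data. No pair of libraries of a group agreed within sampling noise (lowest chi-square per degree of freedom 30.95). Named are the 10 members, listed clock genes, glucocorticoid-induced and immediate early genes, markers that bear on them, and the 5 genes at each end of likeness to *Arntl* (genes averaging 5 CPM or more). Some genes of the list of other clock genes are not reported here. The members and lists were chosen with earlier results of these data known.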

Additional observations from a re-analysis of the deposited data

Results flagged for a closer look

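Of 40 groups of 4 or 5 libraries of a clock gene and 20 of a ratio, 5 and 1 held a library that stood apart by Dixon's test. Chance gives this in about 1 of 20 independent groups. These groups share libraries and most ratios share *Arntl*, so that rate does not apply to them. Wild type HFD library 4 had been set apart by these same values, so its flags are a description only. Of the 5 levels, 3 were wild type HFD library 4, namely *Arntl* at 16.3 CPM in eWAT (others 1.64 to 5.62), *Arntl* at 18.96 CPM in iWAT (2.48 to 4.05) and *Per3* at 20.9 CPM in iWAT (70.5 to 87.9). The log2 ratio of *Dbp* to *Arntl* of that library in iWAT was 1.73 (5.93 to 6.93). The other levels were *Clock* at 93.7 CPM in eWAT ND library 1 (79.7 to 81.9) and *Cry1* at 8.23 CPM in iWAT wild type HFD library 5 (13.6 to 15.5).

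The diet effect differed between depots for 4 of the 18 other clock genes (edgeR interaction, eWAT minus iWAT, Benjamini-Hochberg adjustment over all genes), 3 lower and 1 higher, where 15% of all genes were called lower and 14% higher. The value was -0.96 (SE = 0.25, adjusted p = 0.0099) for *Cry2*, -0.83 (SE = 0.23, adjusted p = 0.013) for *Csnk1e*, -0.55 (SE = 0.17, adjusted p = 0.025) for *Btrc* and 0.89 (SE = 0.29, adjusted p = 0.032) for *Timeless*. *Cry2* was at 53.4 to 74.3 CPM on ND and 24.1 to 44.2 CPM in wild type HFD of eWAT. These groups did not overlap, HFD being lower, as for 17.9% of all genes. In iWAT *Cry2* was at 36.7 to 54.99 and 56.2 to 60.4 CPM, without overlap in the other direction, as for 23.1% of all genes. The diet test in iWAT did not call it.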

How the results depend on the processing

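Apart from leaving out 1 library, 531 recomputed fold changes of clock genes kept their direction and side of the threshold, 15 moved past it, 1 fell short of it and 21 changed sign. Depth limits *Npas2* most, and neither it nor, in iWAT, *Arntl* passed a filter of 1 CPM in every library. The cause of the changes below was not tested.

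The counts of clock genes called changed as follows. With DESeq2's Wald test 1 was higher on HFD in eWAT, where 3951 of 14936 genes were. In iWAT this test gave 1 higher and 2 lower, where 3854 and 3746 of 14801 genes were. By genotype in eWAT the first series gave 1 higher and 2 lower, where 1601 and 2137 of 14936 genes were. There 1 CPM in every library gave 0 lower, where 1478 of 12142 genes were. On HFD in iWAT the series term gave 2 lower, where 2587 of 14801 genes were. An adjusted p under 0.05 gave 0 lower there, where 2857 of 14801 genes were. Leaving out 1 library gave 0 to 1 higher on HFD in eWAT, where 3148 to 3871 genes were. By genotype in eWAT it gave 0 to 1 higher and 1 to 2 lower, where 703 to 2020 and 1006 to 2218 genes were. On HFD in iWAT it gave 0 to 2 in each direction, where 2816 to 4039 genes were higher and 2649 to 4072 lower. Genes tested ran from 14758 to 14987 in eWAT and from 14669 to 14851 in iWAT. The interaction of diet and depot held 0 to 1 lower, where 1414 to 2376 of 14924 to 15071 genes were.

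Whether equal library numbers mark the same mouse is not stated. Of 11 pairs with the same number across depots, 5 deviated together with r over 0.1, and 5 correlated best with their own number. The values ran from -0.09 to 0.49, the highest for wild type HFD library 4. Equal numbers in different groups of a depot are different mice. Between wild type and *Acod1*-/- HFD in eWAT, 4 of 5 such pairs exceeded 0.1 and 4 correlated best. Between ND and wild type HFD in eWAT these were 3 and 0 of 4. In iWAT 1 of 3 exceeded 0.1 and 1 correlated best in each of these comparisons. The counts thus do not tell whether equal numbers across depots mark the same mouse. The replicate block within a depot used the number alone and so tied different mice. It gave 2 higher and 3 lower clock genes on HFD in iWAT, where 3028 and 2644 of 14801 genes were. It turned *Cry1* on HFD in iWAT to 0.014, and *Clock* and *Npas2* by genotype in iWAT to 0.14 and 0.48. Over both depots the block used genotype, diet and number. It gave 4 lower in the interaction of diet and depot, where 2453 of 15034 genes were. It turned *Npas2* and *Nr1d1* between depots on ND to 0.0068 and -0.034. In the interaction of genotype and depot it turned *Arntl*, *Clock*, *Per1* and *Dbp* to -0.16, -0.096, 0.014 and 0.045.

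Other signs that changed belonged to values near 0 or to *Npas2*. With the series term *Clock* on HFD in eWAT was 0.037, *Npas2* and *Cry1* by genotype in iWAT were 0.67 and 0.023, and *Per3* in the interaction of genotype and depot was -0.013. *Clock* by genotype in iWAT was 0.0037 without a filter, 0.0050 with DESeq2 size factors, 0.0050 with its Wald test and 0.0036 with only the compared groups, and *Cry1* there was 0.050 in the first series. *Per3* in the interaction of genotype and depot was -0.011 with 1 CPM in every library. Without library 4 of both depots, an alternative added after seeing the data, *Arntl* and *Per3* there were -0.17 and -0.026.

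With 1 library left out, values that changed sign ranged as follows. On HFD in eWAT *Nr1d2* ran from -0.25 to 0.040 and *Per3* from -0.24 to 0.18, and in iWAT *Cry1* from -0.18 to 0.021. By genotype in eWAT *Clock* ran from -0.036 to 0.19 and *Cry1* from -0.020 to 0.17, and in iWAT *Clock* from -0.12 to 0.17, *Npas2* from -1.49 to 0.89 and *Cry1* from -0.48 to 0.19. Between depots on ND *Npas2* ran from -0.58 to 0.082 and *Dbp* from -0.59 to 0.89. In the interaction of diet and depot *Arntl* ran from -0.45 to 1.41, *Cry1* from -0.22 to 0.014 and *Dbp* from -1.05 to 0.43. In that of genotype and depot *Arntl* ran from -0.97 to 0.89, *Clock* from -0.097 to 0.19, *Nr1d1* from -0.12 to 0.36, *Per1* from -0.50 to 0.082, *Per2* from -0.082 to 0.64, *Per3* from -0.33 to 0.45, *Cry1* from -0.13 to 0.55 and *Dbp* from -0.65 to 0.024.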

Other observations

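Some of the 18 other clock genes stood apart in wild type HFD library 4 and some did not. Not all of them are given here. *Tef*, a D-box factor related to *Dbp*, was at 41.4 CPM there in eWAT and at 64.2 CPM in iWAT, against 107 to 140.3 and 153 to 186.7 CPM in the other wild type HFD libraries. *Hlf*, the other factor of that family, was at 2.59 and 5.97 CPM, against 10.1 to 12.6 and 14.7 to 23.2 CPM. *Ciart*, a repressor of the loop, was at 0.491 and 0.860 CPM, against 2.44 to 3.90 and 3.31 to 5.41 CPM. *Nfil3*, which represses through D-boxes, was higher at 14.9 and 13.3 CPM, against 4.54 to 6.24 and 2.56 to 6.40 CPM. *Cry2* (36.9 and 59.1 CPM), *Bhlhe40* (23.3 and 39.5 CPM) and *Timeless* (9.54 and 9.14 CPM) of library 4 lay within the range of its group in both depots. *Rora* was the lowest of its group in eWAT (51.2 CPM) and the highest in iWAT (77.0 CPM). The share of all genes that stood apart was not counted.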
